A study of Homo sapiens with 414 samples.

Results

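MTRNR2L2, MTRNR2L3, MTRNR2L6, MTRNR2L8 and MTRNR2L10 are nuclear genes named for their likeness to MT-RNR2, the mitochondrial gene of the 16S ribosomal RNA. They were taken as 5 of the 19097 human gene rows of the single-cell tables, which hold rows for 9 MTRNR2L genes, and were selected on measured values: their level in both cell lines and in bulk H1, and their correlation over cells with the mitochondrially encoded rows, seen in earlier results from the same files. Their levels and their relation to those rows are therefore given as descriptions, with no test.

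MT-RNR2 holds a short open reading frame for humanin, a peptide studied for protecting cells from death, for example by binding the pro-apoptotic protein BAX. The MTRNR2L genes are copies of that mitochondrial sequence carried in the nuclear genome, and their reading frames are predicted to encode humanin-like peptides. Because a copy and its source can share stretches as long as a sequencing read, a read of mitochondrial 16S rRNA can align to both. The question behind the rows is how far their levels are those of nuclear transcripts and how far they are reads of the mitochondrial rRNA.

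The cells came from H1 and H9, established human embryonic stem cell lines grown undifferentiated in E8 medium on Matrigel. H1 cells (passages 20 to 30, 92 cells) and H9 cells (passages 25 to 35, 91 cells) were captured with the Fluidigm C1 system. Their full-length cDNA was made with the SMARTer kit. Each cell's library was sequenced with 24 and again with 96 libraries per lane. The bulk samples are 48 libraries of H1 at passage 16, made by ligation (LM-Seq) from poly-A RNA picked with oligo-dT beads and sequenced with 48 libraries per lane. All reads were single-end and 51 bases long. Cells carried 92 spike-in RNAs and no group was treated. Each line was taken as 1 sample, and cells are not replicates of it. How many chips each line used is not in the labels. In bulk, fewer cells that hold an RNA and less of that RNA per cell cannot be told apart. Whether the 48 bulk libraries stand for separate cultures is not in the labels, and their spread may be technical.

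Human gene counts per library ran from 1136295 to 8096756 in H1 cells and from 1568326 to 7758948 in H9 cells at 24 per lane, from 293181 to 1868085 and from 380309 to 1810483 at 96 per lane, and from 2099639 to 3964675 in bulk. All 8 embryonic stem cell markers were at 10 CPM (counts per 1000000 human gene counts) or more, with a sum of 5217 CPM over H1 and 4085 CPM over H9 cells. The 3 mesoderm markers summed to at most 0.157 CPM and the 3 endoderm markers to at most 4.37 CPM, while the 3 neural markers summed to 25.0 CPM in H1 and 24.5 CPM in H9 cells, nearly all of it NES. Of the 6 fibroblast markers, COL3A1 and LUM were at 0 in both lines and DCN at 0 in H1 cells, while THY1, which stem cells also carry, made up most of the list's 200 CPM in H1 and 213 CPM in H9 cells. COL1A2 had 28.7 CPM (H1) and 20.8 CPM (H9), and COL1A1 had 5.67 and 4.14 CPM. The part of these markers in the members' values was not tested. Spike-in or mitochondrial shares were unusual in 5 H1 and 2 H9 cells (spike-ins above 10%, or MT- rows below 1% or above 20% of counts). For the summed members, rho, span and the ratio between lines are given with and without these cells.

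The reading frames below show how close each copy lies to its source. They are printed 5′ to 3′ from the start codon through the stop codon. Capitals mark bases that differ from MT-RNR2 in an ungapped comparison from the start codon. For MTRNR2L2 this comparison runs past the end of the MT-RNR2 frame, into bases of MT-RNR2 that are not printed. Positions are on GRCh38 (GENCODE transcripts), a later build than the hg19 used for the counts. The frame in MT-RNR2 lies at chrM:2633-2707 on the plus strand.
MT-RNR2: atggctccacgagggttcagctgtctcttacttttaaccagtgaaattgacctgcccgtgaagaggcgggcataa
MTRNR2L8 (chr11:10508152-10508226, minus strand): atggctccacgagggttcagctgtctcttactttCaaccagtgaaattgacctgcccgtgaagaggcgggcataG
MTRNR2L2 (chr5:80650000-80650086, minus strand): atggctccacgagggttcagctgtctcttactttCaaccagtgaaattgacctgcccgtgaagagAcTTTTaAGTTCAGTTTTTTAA
MTRNR2L10 (chrX:55181920-55181994, minus strand): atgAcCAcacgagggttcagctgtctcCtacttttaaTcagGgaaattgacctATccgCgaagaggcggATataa
MTRNR2L3 (chr20:57358965-57359039, minus strand): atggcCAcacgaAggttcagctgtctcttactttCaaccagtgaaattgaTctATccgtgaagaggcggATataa
MTRNR2L6 (chr7:142667231-142667305, plus strand): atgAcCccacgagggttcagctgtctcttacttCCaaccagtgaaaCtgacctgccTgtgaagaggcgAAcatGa

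The MTRNR2L8 frame differed from the mitochondrial one at 2 of 75 bases, MTRNR2L3 and MTRNR2L6 at 9 each and MTRNR2L10 at 11. MTRNR2L2 runs on to 87 bases and 28 codons against 24 codons in the other 4 copies. Its 21 differences, some of them past the end of the MT-RNR2 frame, lie almost all in the last stretch. The start before that stretch is the same as that of MTRNR2L8. Over the stretch of MTRNR2L2 that aligned with MT-RNR2, 64 of 65 bases were identical. GENCODE lists MTRNR2L2 as a processed pseudogene and the other 4 as protein-coding.

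In single cells MTRNR2L2 and MTRNR2L8 were among the most abundant of all rows. MTRNR2L2 ranked 12 of all rows in H1 cells and 9 in H9 cells by summed counts at 24 libraries per lane, and MTRNR2L8 ranked 13 and 12. MTRNR2L10 ranked 134 and 113, MTRNR2L3 608 and 616, and MTRNR2L6 1305 and 1236. Together the 5 rows held 1.01% of human counts in H1 cells, 1.16% in H9 cells and 0.0738% in bulk H1. Each row was detected, at 1 count or more, in every one of the 92 H1 and 91 H9 cells, whichever the depth.

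MTRNR2L2, the copy with the longer frame, had a lowest, median and highest level of 229, 3928 and 22399 CPM over H1 cells, 349, 5014 and 12125 CPM over H9 cells, and 427, 486 and 936 CPM over bulk libraries. MTRNR2L8, the copy whose frame is closest to humanin, had 256.8, 3693 and 21772 CPM over H1 cells, 379, 4674 and 11172 CPM over H9 cells, and 193, 230 and 381 CPM over bulk libraries. The cells of both lines overlapped throughout for both copies, while all but 1 H1 cell lay above every bulk library.

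MTRNR2L10 had a lowest, median and highest level of 69.7, 755 and 4382 CPM over H1 cells, 83.4, 927 and 2165 CPM over H9 cells, and 2.62, 6.47 and 10.4 CPM over bulk libraries. MTRNR2L3 had 25.4, 252.2 and 1377 CPM over H1 cells, 21.5, 270.7 and 746 CPM over H9 cells, and 0, 1.49 and 3.602 CPM over bulk libraries. MTRNR2L6 had 18.7, 130 and 865 CPM over H1 cells, 16.3, 154 and 402 CPM over H9 cells, and 0, 1.29 and 3.51 CPM over bulk libraries. For these 3 copies the cells of the lines again overlapped, and every H1 cell lay above every bulk library. In bulk, MTRNR2L3 was detected in 46 and MTRNR2L6 in 45 of 48 libraries, at a handful of counts each, so single bulk values of these copies are set largely by counting error.

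**Figure D1:**
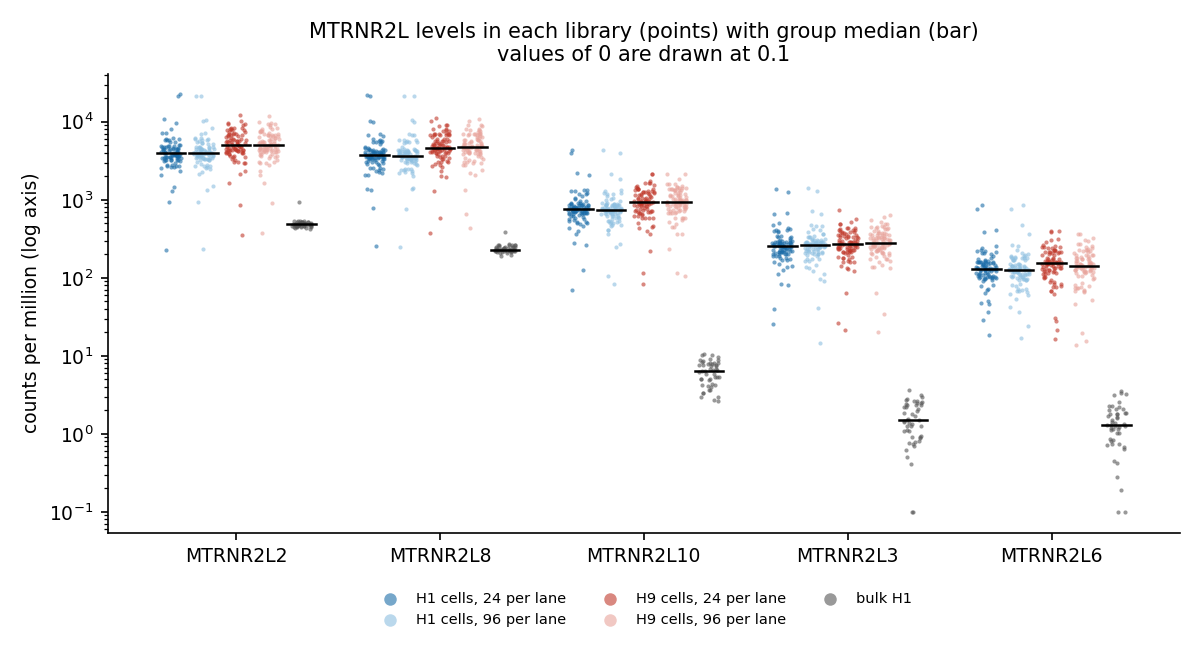
Level of each of the 5 MTRNR2L rows (CPM, log axis) in every library, as points by group, with the group median as a bar. Both lines and both depths overlap for every row, and the bulk libraries lie below nearly all cells: at 24 per lane the lowest H1 and the lowest H9 cell lie under every bulk library for MTRNR2L2 and inside the bulk range for MTRNR2L8, and the gap to bulk is wider for MTRNR2L10, MTRNR2L3 and MTRNR2L6 than for MTRNR2L2 and MTRNR2L8.

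The order MTRNR2L2, MTRNR2L8, MTRNR2L10, MTRNR2L3, MTRNR2L6 was the same in H1 cells, H9 cells and bulk by summed counts. In bulk the last 2 could not be told apart, with counting intervals of 1.42 to 1.84 CPM for MTRNR2L3 and 1.27 to 1.67 CPM for MTRNR2L6. Per kilobase of RefSeq gene length it was also the same in H1 cells, with 7412, 3325, 820, 468 and 227 CPM per kilobase. These lengths are from a later annotation than the one behind the counts, which is not given in the sources used here, and transcripts of these genes differ widely in length between annotations. MTRNR2L2 and MTRNR2L8 had levels that did not differ beyond the spread over cells: their log2 ratio ran from -0.17 to 0.43 over H1 cells with a median of 0.08.

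The other 4 MTRNR2L rows ran from a level above MTRNR2L10 down to a level below MTRNR2L6. MTRNR2L1 had 1225 CPM in summed H1 cells and 1334 CPM in summed H9 cells, more than MTRNR2L10. MTRNR2L4 had 72.2 and 119 CPM at 24 per lane and 70.2 and 73.5 CPM at 96 per lane, MTRNR2L5 12.4 and 11.1 CPM, and MTRNR2L7 0.412 and 0.638 CPM. MTRNR2L7 was listed at 0 in all 48 bulk libraries.

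The 5 rows varied with the mitochondrial transcripts from cell to cell. The comparison used the 13 MT- rows, all genes of mitochondrially encoded proteins of the respiratory chain and ATP synthase. These 13 were all the rows named MT- in the single-cell data, and MT-RNR2 was not among them, so its own level could not be given. The MT- rows held 6.055% of counts in summed H1 and 7.499% in summed H9 cells, with MT-CO1, a subunit of cytochrome c oxidase, highest (16751 and 20150 CPM) and MT-ND3, a subunit of complex I, lowest (93.6 and 115 CPM).

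Spearman's rho between the summed members and the summed MT- rows was 0.807 over 92 H1 cells and 0.911 over 91 H9 cells, on CPM at 24 libraries per lane. In H1 cells rho was 0.773 for MTRNR2L2, 0.820 for MTRNR2L8, 0.764 for MTRNR2L10, 0.812 for MTRNR2L3 and 0.788 for MTRNR2L6. In H9 cells rho was 0.891 for MTRNR2L2, 0.916 for MTRNR2L8, 0.883 for MTRNR2L10, 0.835 for MTRNR2L3 and 0.843 for MTRNR2L6. The cells of a line were taken as 1 sample, and every CPM value shares its cell's total, so these are descriptions with no p. Leaving out the 5 H1 and 2 H9 cells described above, rho of the summed members was 0.772 in H1 and 0.909 in H9 cells.

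No row outside the MT- and MTRNR2L genes reached the members. Over 8382 other rows at 10 CPM or more in H1 cells, rho with the MT- sum had a median of -0.01 and a highest value of 0.576, for ZYG11A. Over 8410 other rows in H9 cells the median was -0.01 and the highest value 0.549, for SLC24A4. The MT- rows themselves, each set against the sum of the others, had rho from 0.537 to 0.896 with a median of 0.838 in H1 cells, and from 0.627 to 0.946 with a median of 0.876 in H9 cells. The members thus lay inside the range of the MT- rows in both lines.

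**Figure D2:**
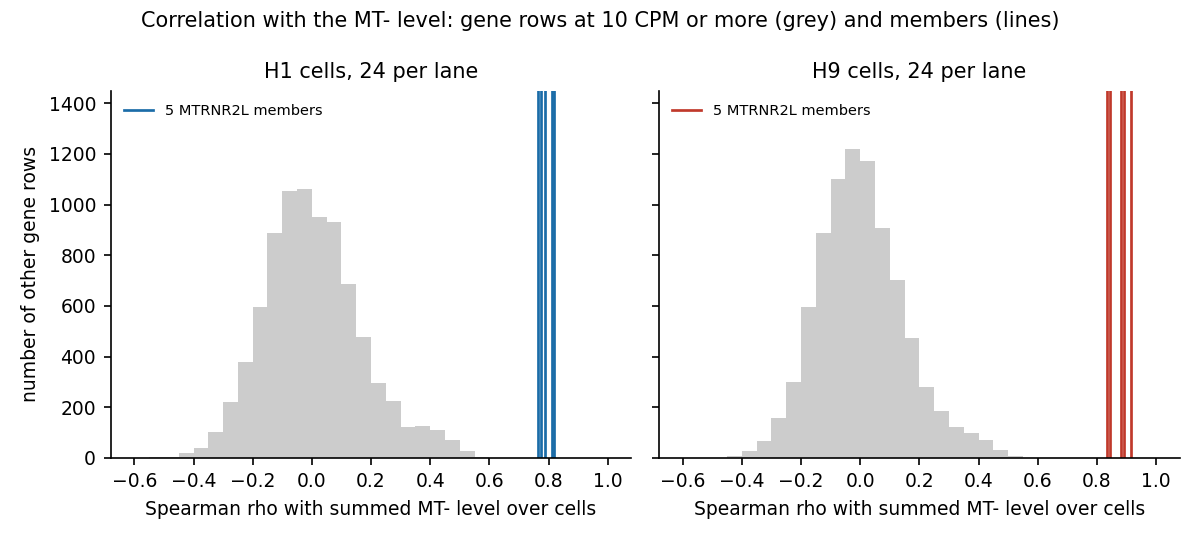
Spearman's rho with the summed MT- level over cells, for H1 (left) and H9 (right) at 24 libraries per lane: grey bars count the other gene rows at 10 CPM or more, and coloured lines are the 5 MTRNR2L rows. The lines lie at 0.764 to 0.820 in H1 and 0.835 to 0.916 in H9, right of every other row (MT- and MTRNR2L rows are not among the grey bars).

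Of the rows that did not choose the members, MTRNR2L1 had rho of 0.774 in H1 and 0.860 in H9 cells and MTRNR2L4 had 0.812 and 0.870, close to the members. MTRNR2L5, at about 12 CPM, had 0.560 and 0.489. MTRNR2L7, at under 1 CPM, had 0.374 and 0.421.

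The summed members varied less against the MT- level than they did alone. As a percentage of the MT- counts they were 11.02% at the lowest, 16.5% at the median and 25.2% at the highest over H1 cells, and 11.5%, 15.4% and 25.1% over H9 cells. The MT- level itself spanned 110-fold over H1 cells and 31.1-fold over H9 cells, and the members spanned 83.3-fold and 30.99-fold. These spans rest on the few unusual cells named above: over the other 87 H1 and 89 H9 cells the MT- level spanned 9.05-fold and 13.8-fold, and the members 7.95-fold and 16.6-fold. On the log2 scale the ratio of members to MT- rows had an SD of 0.24 in H1 and 0.19 in H9 cells, and of 0.24 and 0.20 over those other cells.

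The members were also lowest or highest in the cells at the ends of the MT- range. The H1 cell with the lowest MT- level, 2918 CPM, also had the lowest summed members, 610 CPM. The H1 cells numbered 61 and 26 had the highest MT- levels, 322048 and 289895 CPM, and the highest summed members, 48817 and 50795 CPM. Both had unusual spike-in shares, 17.0% and 19.7%, as did the lowest cell at 10.8%. The share was not the same along the range: the members were 20.9%, 19.7% and 21.7% of the MT- counts in the 3 H1 cells with the least MT-, and 15.2% and 17.5% in the cells numbered 61 and 26. In H9 the cell with the lowest MT- level, 5387 CPM, had 853 CPM of members, the lowest of the line, and the cell with the highest, 167546 CPM, had 26433 CPM, the highest.

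**Figure D3:**
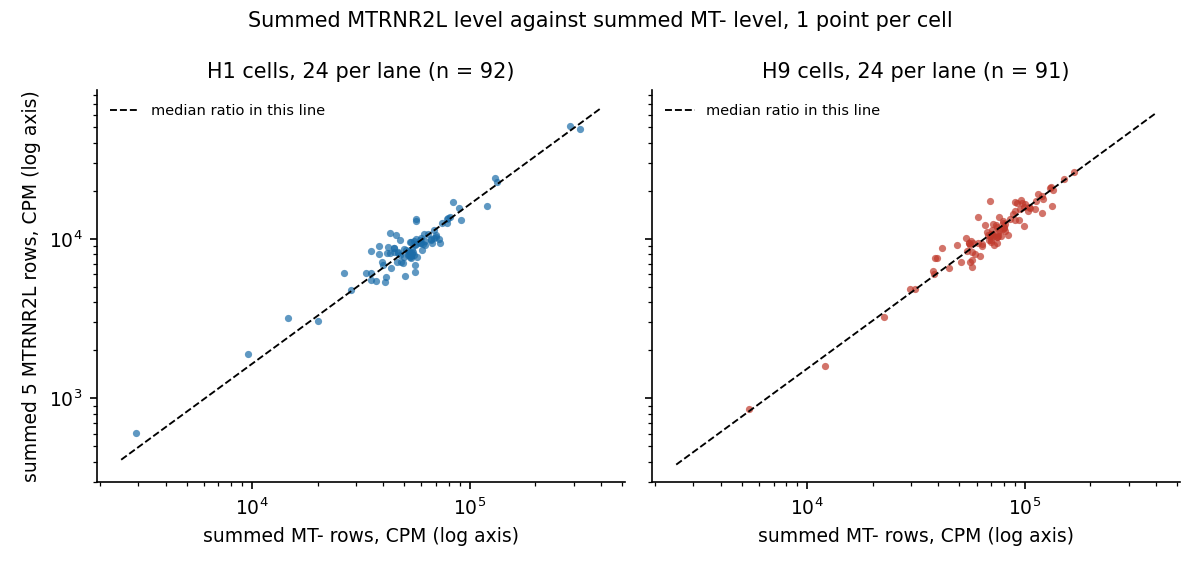
Summed level of the 5 MTRNR2L rows against the summed level of the 13 MT- rows (both CPM, log axes), 1 point per cell, for H1 (left) and H9 (right) at 24 libraries per lane; the dashed line is the median ratio of the line. Points follow the dashed line from the lowest cell (610 CPM of members in H1) to the highest (50795 CPM).

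MTRNR2L2 and MTRNR2L8 together made up most of the members' counts in every cell. MTRNR2L2 was 44.9% ± 2.38 (SD, n = 92 cells) of the members' counts in H1 cells and 45.8% ± 2.49 (SD, n = 91 cells) in H9 cells. MTRNR2L8 was 42.2% ± 1.35 and 42.3% ± 1.498, MTRNR2L10 8.54% ± 0.889 and 8.19% ± 0.942, MTRNR2L3 2.83% ± 0.350 and 2.41% ± 0.350, and MTRNR2L6 1.51% ± 0.427 and 1.38% ± 0.295. The share of MTRNR2L6 varied most for its size, from 0.638% to 4.76% over H1 cells and from 0.446% to 2.33% over H9 cells. The 4.76% came from the H1 cell with the lowest MT- level, whose spike-in share of 10.8% was unusual. The range of shares without that cell was not analysed here. Over the 10 pairs of members, rho ran from 0.806 to 0.947 in H1 and from 0.806 to 0.975 in H9 cells.

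The SD over H1 cells of the log2 ratio of MTRNR2L2 to MTRNR2L8 was 0.12, where counting alone gives 0.020. It was 0.13 for MTRNR2L8 over MTRNR2L10, 0.17 over MTRNR2L3 and 0.31 over MTRNR2L6, where counting alone gives 0.034, 0.056 and 0.076. Over all 10 pairs of members the SD had a median of 0.23, against 0.39 over the 78 pairs of MT- rows. In H9 cells the medians were 0.26 and 0.39. The ranges overlapped, from 0.12 to 0.37 for members and from 0.18 to 0.72 for MT- rows in H1 cells.

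The proportions differed in bulk. MTRNR2L2 was 66.75% ± 1.93 of the members' counts over 48 bulk libraries (SD), MTRNR2L8 31.99% ± 1.93, MTRNR2L10 0.850% ± 0.283, MTRNR2L3 0.218% ± 0.113 and MTRNR2L6 0.193% ± 0.108. The lowest share of MTRNR2L2 in a bulk library, 63.5%, was above its highest share in an H1 cell, 52.2%, and the highest share of MTRNR2L8 in bulk, 35.2%, was below its lowest in an H1 cell, 38.4%. The median log2 ratio of MTRNR2L2 to MTRNR2L8 was 1.06 in bulk and 0.08 in H1 cells. Across bulk libraries rho over the 10 pairs ran from -0.13 to 0.33, with a median of 0.09. It was 0.26 for MTRNR2L2 with MTRNR2L8, 0.33 for MTRNR2L2 with MTRNR2L10 and 0.27 for MTRNR2L8 with MTRNR2L10. The other 7 pairs hold MTRNR2L3 or MTRNR2L6, whose bulk counts are few.

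**Figure D4:**
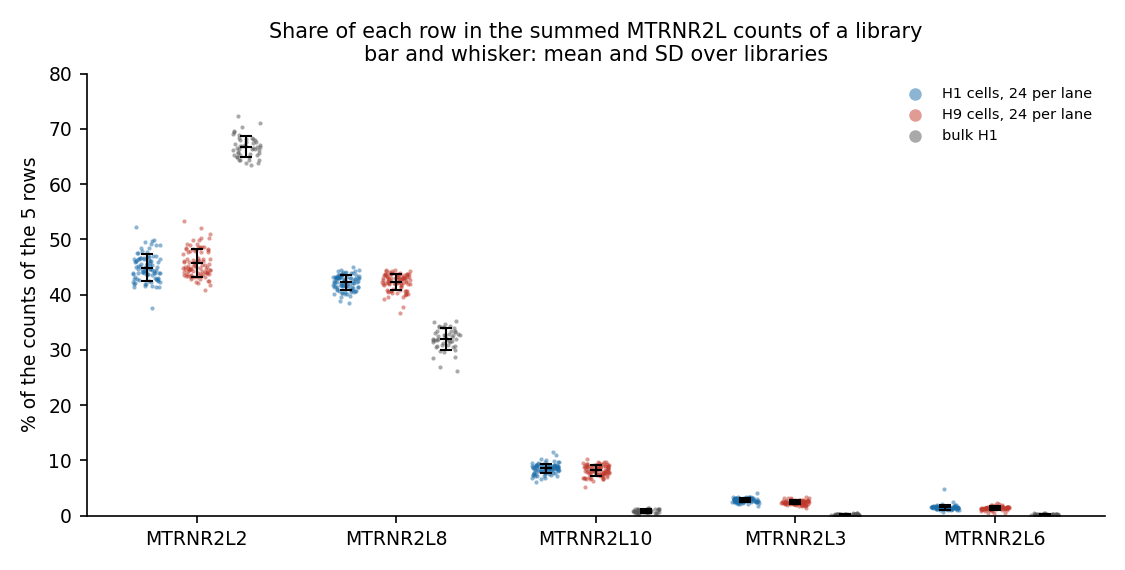
Share of each MTRNR2L row in the summed counts of the 5 rows (percent, linear axis), 1 point per library, with the mean as a bar and the SD as a whisker. MTRNR2L2 lies at 66.75% in bulk and 44.9% in H1 cells. The smaller rows MTRNR2L10, MTRNR2L3 and MTRNR2L6 have mean shares of 0.85%, 0.22% and 0.19% in bulk.

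All 5 rows were higher in H1 cells than in bulk H1. MT- rows were left out of the cells' totals, since the bulk counts are named as lacking them. MTRNR2L2 had 4820 CPM in summed cells against 494 ± 70.9 CPM (mean and SD, n = 48) in bulk, which is 9.76-fold or 3.29 on the log2 scale. MTRNR2L8 had 4565 CPM against 236 ± 27.98 CPM, a 19.3-fold difference. MTRNR2L10 had 917 against 6.28 ± 2.19 CPM, a 146-fold difference. MTRNR2L3 had 303 against 1.61 ± 0.858 CPM, a 187-fold difference, and MTRNR2L6 161 against 1.43 ± 0.835 CPM, a 113-fold difference.

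All 5 of these rows were past 2-fold towards cells, where 30.1% of the 9647 rows at 10 CPM or more were, and all 5 were past 8-fold, where 4.37% were. The members' median log2 difference was 6.82 and that of all 9647 rows 0.24. Ranked by this difference MTRNR2L3 was 8, MTRNR2L10 13 and MTRNR2L6 19 of those rows, and MTRNR2L8 149 and MTRNR2L2 322. Cells and bulk differ in cDNA chemistry, poly-A selection, passage and the start material. They also differ in the human gene rows, 19097 in cells and 19084 in bulk, whose counts are named as lacking the MT- rows. How mitochondrial reads were handled in bulk was not tested. These differences cannot be told apart here, and 48 bulk libraries against cells taken as 1 sample give no test.

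A single bulk library stood apart for the copies with the most counts. It held 936 CPM of MTRNR2L2, where the next highest had 537, and 381 CPM of MTRNR2L8, where the next had 270.5. Without it, MTRNR2L2 in bulk was 484 ± 28.2 CPM (SD, n = 47), and the summed members lay 3.89 above bulk on the log2 scale against 3.86 with it.

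Levels in CPM lay within 2-fold between H1 and H9 cells, with the summed members lower in H1, at -0.20 on the log2 scale. The log2 ratio of H1 to H9 in summed cells was -0.23 for MTRNR2L2, with a counting interval of -0.23 to -0.22. It was -0.20 for MTRNR2L8 (-0.21 to -0.20), -0.14 for MTRNR2L10 (-0.15 to -0.13), 0.03 for MTRNR2L3 (0.02 to 0.05) and -0.05 for MTRNR2L6 (-0.07 to -0.02). These 95% intervals are exact Poisson intervals of the summed counts and cover counting error only, not the spread between samples of a line. None of the 5 was past 2-fold, where 4.06% of 8851 rows at 10 CPM or more were, 1.83% towards H1 and 2.23% towards H9.

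The summed MT- rows were lower in H1 in the same way, at -0.31, and the 13 MT- rows ran from -0.56 to -0.07 with a median of -0.36, while the median of all 8851 rows was 0.02. The summed members stood at -0.20 over the same cells. The MT- rows were not compared without the 5 H1 and 2 H9 cells with odd spike-in or mitochondrial shares. Once those cells were left out, the summed members stood at -0.35, which cannot be set beside the -0.31 of the MT- rows. The values then were -0.38 for MTRNR2L2, -0.35 for MTRNR2L8, -0.28 for MTRNR2L10, -0.11 for MTRNR2L3 and -0.21 for MTRNR2L6, so the direction of MTRNR2L3 turned.

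In summed cells the members differed little between depths of the same cDNA libraries. The log2 ratio of 24 to 96 per lane ran from -0.03 for MTRNR2L3 to 0.03 for MTRNR2L6 in summed H1 cells and from -0.06 for MTRNR2L3 to 0.10 for MTRNR2L6 in summed H9 cells. In these sums no member was past 2-fold, and neither was any other row at 10 CPM or more (0.0% of 8454 in H1 and of 8485 in H9). Over cells, rho between the depths was 0.989 for MTRNR2L2, 0.993 for MTRNR2L8, 0.968 for MTRNR2L10, 0.834 for MTRNR2L3 and 0.865 for MTRNR2L6 in H1. In H9 rho was 0.992, 0.997, 0.983, 0.922 and 0.811 in the same order. Within single cells the log2 ratio of 24 to 96 per lane ranged most widely for MTRNR2L6. It ran from -1.60 to 0.98 over H1 cells and from -1.85 to 2.04 over H9 cells. That of MTRNR2L2 ran from -0.12 to 0.09 and from -0.13 to 0.15.

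The members' deposited values were rarely whole numbers. They are expected counts, in which a read that aligns to several transcripts is divided among them, so a row need not hold a whole number. Of 92 H1 cells at 24 per lane, values further than 0.005 from a whole number were found in 92 for MTRNR2L2 and MTRNR2L10 and in 91 for MTRNR2L3, MTRNR2L6 and MTRNR2L8. Over all rows with counts in these cells, 52.3% of values were not whole. That share takes in rows with few counts and is not matched to the members' level. In bulk, MTRNR2L2, MTRNR2L8 and MTRNR2L10 were not whole in all 48 libraries, and MTRNR2L3 and MTRNR2L6 in 46 each. Of all bulk values above 0, 24.3% were not whole. Which transcripts a divided read also aligned to was not tested, and 12 of the 13 MT- rows were not whole in 88 to 91 H1 cells as well, with MT-ND3 not whole in 40.

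The mitochondrial sequence was compared with each copy in stretches of a read's length. Of the 1509 windows of 51 bases in MT-RNR2, 483 were found in MTRNR2L8 with at most 2 mismatches, 99 in MTRNR2L10, 94 in MTRNR2L6 and 44 in MTRNR2L3. Without a mismatch the numbers were 108, 12, 5 and 0. For MTRNR2L2 the GENCODE transcript is only the 87-base frame, in which 17 windows were found, so it cannot be set beside the others. The other rows held 237 windows (MTRNR2L1), 14 (MTRNR2L4) and 0 (MTRNR2L5 and MTRNR2L7). Among these 8 rows the order by windows was that of their level in H1 cells except that MTRNR2L3, with fewer windows, lay above MTRNR2L6. The order rests on the limit of mismatches: with none, MTRNR2L1 had 10 windows against 12 in MTRNR2L10, and with at most 3, MTRNR2L6 had 160 against 145 in MTRNR2L10. In summed bulk libraries MTRNR2L4, with 14 windows at the limit of 2, was at 4.55 CPM, above MTRNR2L3 at 1.62 and MTRNR2L6 at 1.46 CPM.

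Over the aligned stretch, identity with MT-RNR2 was 93.01% for MTRNR2L8, 84.9% for MTRNR2L6, 82.7% for MTRNR2L10 and 82.3% for MTRNR2L3. The transcripts are those of GENCODE on GRCh38 and the windows describe sequence only: which reads were counted on a row was not analysed here.

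**Figure D5:**
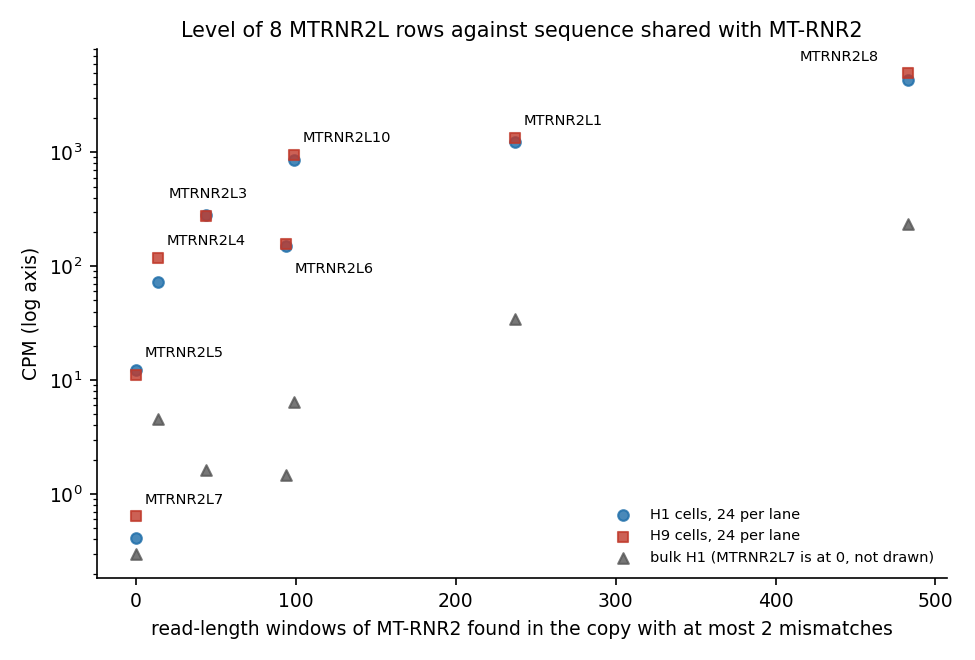
Level of 8 MTRNR2L rows (CPM, log axis) in summed H1 cells, summed H9 cells and summed bulk libraries against the number of 51-base windows of MT-RNR2 found in the copy with at most 2 mismatches; MTRNR2L2 is left out for its short transcript. MTRNR2L8, with 483 windows, lies highest and MTRNR2L7, with 0, lowest in both lines.

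Outside the MTRNR2L and MT- genes, the rows whose level over cells was most like that of the summed members, by the lower of the rho values in both lines among 7962 rows, were MYLK3 (0.481 in H1 and 0.439 in H9), TNFRSF9 (0.434 and 0.427), KREMEN1 (0.448 and 0.425), FBXL18 (0.440 and 0.423), ARGFX (0.448 and 0.422) and KIAA1456 (0.421 and 0.424). All 6 lay below the pairs of members, whose rho with each other was 0.806 or more.

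Nuclear genes that serve the mitochondrial rRNA are among the other rows, none of which reached the members' rho with the MT- sum. The median rho of all those rows was -0.01 in each line. Of 23 listed genes of mitochondrial transcription and rRNA handling, 19 were at 10 CPM or more in a line. Their rho with the MT- sum had a median of -0.07 and a highest value of 0.093 in H1 cells, and a median of 0.03 and a highest value of 0.162 in H9 cells. None was past 2-fold between lines. The largest differences were those of TFB1M, which methylates the small mitochondrial rRNA (67.1 CPM in H1 and 34.9 CPM in H9, 0.94 on the log2 scale), MTERF, a mitochondrial transcription termination factor (52.03 and 31.4 CPM, 0.73), and MTG1, a GTPase of the mitochondrial ribosome (46.4 and 65.05 CPM, -0.49).

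Of 47 genes of the large mitochondrial ribosomal subunit, the particle built on the MT-RNR2 rRNA, 46 were at 10 CPM or more. Their rho with the MT- sum had a median of -0.10 in H1 and -0.09 in H9 cells and reached at most 0.230. One, MRPL41, was past 2-fold, with 7.02 CPM over H1 and 14.1 CPM over H9 cells, where 2.23% of all rows were past 2-fold towards H9, and the list's median log2 ratio was -0.06. Of the 9 listed partners of humanin, 3 were at 10 CPM or more in a line: BID, a pro-apoptotic BCL2 relative (50.4 CPM in H1 and 62.4 CPM in H9 cells), BCL2L11, another (12.4 and 7.22 CPM), and IL6ST, the gp130 subunit of a humanin receptor (27.6 and 36.1 CPM). Their rho with the MT- sum was at most 0.089.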

How the data were processed

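Per the submitters' processing notes, reads were handled with CASAVA 1.8.2, Bowtie 0.12.8 and RSEM 1.2.3 on hg19; the gene annotation is not given in the sources used here. The authors deposited expected counts per gene, unrounded, for H1 and H9 cells at both depths and for bulk H1. Spike-in rows were left out of totals, and counts were scaled to 1000000 human gene counts per library (CPM). Cells of a group were summed, each line being 1 sample, so ratios carry exact Poisson 95% intervals that cover counting error only. Sizes were read against 2-fold among rows at 10 CPM or more. Spearman's rho was taken over cells. Libraries of the same cell number at both depths were paired: the library of each of the 92 H1 and 91 H9 cells correlated best with its own number. Every table column was mapped to a sample. TMM factors (edgeR 4.0.16, R 4.3.3) and median-of-ratios factors were alternatives, with other totals and subsets of cells. The computations (Python 3.11.15, numpy 2.4.6, pandas 2.3.3, scipy 1.17.1, matplotlib 3.10.9) were tested on simulated data.

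The 5 members, the gene lists and the comparisons were chosen with earlier results of these data known. Named genes are the 5 members, the other MTRNR2L rows, the MT- rows by range and extremes, the 6 rows most like the summed members, and from each list up to 4 genes with the largest difference between lines. Sequences and windows come from GENCODE transcripts on GRCh38 and were not tied to reads.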

Additional observations from a re-analysis of the deposited data

How the results depend on the processing

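The summed members stood at -0.20 for H1 against H9 on the log2 scale and kept that sign under every alternative run: -0.19 at 96 per lane, -0.20 with TMM factors and with median-of-ratios factors, -0.23 as a mean of per-cell CPM, -0.22 with MT- and MTRNR2L rows out of the totals, -0.35 without cells of unusual spike-in or MT- share, -0.24 without the highest cell of each line and -0.18 without the 10% lowest totals. H1 cells against bulk stood at 3.86, and at 3.70 with TMM and 3.69 with median-of-ratios factors, which also moved the median of all rows from 0.24 to 0.05 and 0.03. Rows at least 2-fold apart numbered 359 between lines, 1515 with a minimum of 1 CPM, and 4979 between cells and bulk. With no minimum, where only rows with counts in both groups were compared, they numbered 3016 and 9002. The rank correlation with the MT- sum was 0.807 in H1 and 0.911 in H9 cells, 0.933 and 0.948 per spike-in count, and 0.954 and 0.962 as Pearson's r of log2(CPM + 1). Per spike-in count, both sides were divided by the same count. Other rows were not compared in either of these settings. The ratio of depths was -0.0060 in H1 and 0.0025 in H9 cells; with the replicate block (pairing by cell number) it was -0.00031 and -0.0053, and with TMM -0.00062 in H9. The cause of these shifts was not tested. Leaving out the bulk library highest in MTRNR2L2, and taking the span and share of the members without the unusual cells, were chosen after seeing the data.

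Single members: of 40 values for H1 against H9, 36 kept their sign, the exceptions being those of MTRNR2L3 and MTRNR2L6, which lie near 0, and none passed 2-fold. All 45 values against bulk kept theirs, from 3.11 to 7.60. Depth limits MTRNR2L3 and MTRNR2L6 in bulk, where counting alone gives a coefficient of variation of 45.2% and 47.7% against 53.2% and 58.4% observed.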

Other observations

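MTRNR2L4 had different levels at the depths of H9 cells; whether this differs from H1 cells was not tested. Its summed level in H9 was 119 CPM at 24 per lane and 73.5 CPM at 96 per lane, 0.69 on the log2 scale, and it was higher at 24 per lane in 90 of 91 cells. In H1 it was 72.2 and 70.2 CPM, higher at 24 per lane in 49 of 92 cells. Among 8485 rows at 10 CPM or more in H9 cells, only 1 other row lay as far from 0. MTRNR2L5 in H9 was 11.1 and 8.68 CPM, 0.36 on the log2 scale and higher at 24 per lane in 66 cells. In summed H9 cells the 5 members ran from -0.06 for MTRNR2L3 to 0.10 for MTRNR2L6. Within single H9 cells MTRNR2L6 ran from -1.85 to 2.04.

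The bulk library with the most MTRNR2L2 was the highest of 48 for MTRNR2L1 (62.6 CPM), MTRNR2L2, MTRNR2L3, MTRNR2L4, MTRNR2L5 and MTRNR2L8, ranked 3 for MTRNR2L6 and 16 for MTRNR2L10. Its total was 2720619 counts, inside the range of the others.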
